A study of Mus musculus with 6 samples.

Results

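The connexins of astrocytes and oligodendrocytes were examined in bulk RNA sequencing of mouse paraventricular thalamus, a midline thalamic nucleus. The 5 genes were taken by symbol from the 21959 genes of the count table: Gja1, Gjb6 and Gjb2, the connexins of astrocytes (Cx43, Cx30 and Cx26), and Gjb1 and Gjc3, connexins of oligodendrocytes (Cx32 and Cx29). All 5 were present, had counts in every library and passed the filter on low counts. The comparison was between 2 groups of 3 libraries. The CCI group (replicates 1 to 3) came from wild-type mice after chronic constriction injury, a model of neuropathic pain made by loose ligatures around a nerve, and the control group (replicates 4 to 6) from wild-type mice whose treatment is labelled None. The labels give no sham operation, no age, no sex and no time after injury. According to the design text a group comprised 30 mice, but how many went into a library is not said. Each p-value therefore rests on library-to-library spread alone, some of which may be technical. The tissue is labelled as brain and the design text names the nucleus.

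Connexins assemble into hemichannels, which dock between neighbouring cells to form gap junctions that pass ions, metabolites and second messengers. Astrocytes are joined into networks mainly by Cx43 and Cx30, with Cx26 at lower abundance and also in the meninges. Oligodendrocytes use Cx32 in gap junctions, while Cx29 lies at the inner myelin membrane facing the axon and is not known for forming gap junctions. These networks are known for carrying away potassium released by active neurons and for moving glucose and lactate.

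The members share the first extracellular loop, in which 3 cysteines hold the docking surface together. The coding bases of that loop are shown here because they tell how similar the members are where a read could be assigned to the wrong gene. Each stretch runs from the first to the third of these cysteines, was located in the longest open reading frame of a GENCODE M21 transcript, and has the cysteine codons in capitals.
Gja1: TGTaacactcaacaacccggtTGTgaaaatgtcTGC
Gjb6: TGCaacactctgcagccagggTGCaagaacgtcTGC
Gjb2: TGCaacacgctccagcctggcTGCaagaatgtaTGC
Gjb1: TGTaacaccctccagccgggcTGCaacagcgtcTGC
Gjc3: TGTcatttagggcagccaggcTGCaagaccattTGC
Gjb6 and Gjb2, which are neighbours on chromosome 14, were the closest pair of the 5 members, with 30 of 36 bases identical, and Gja1 and Gjc3 the most distant, with 18 of 36. No run of 31 bases was shared between any of these transcripts. No other gene of the table overlapped a member.

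Of the 5 members, Gjb6 and Gja1 fell in CCI, Gjc3 rose, and Gjb2 and Gjb1 did not pass an adjusted p of 0.05 (edgeR's quasi-likelihood test with Benjamini-Hochberg adjustment over all 14259 tested genes). Differences were common in this comparison. Of all tested genes 52.3% were called, 27.0% higher and 25.3% lower in CCI, so 3 called of 5 is close to the background share. The 3 called members are also the 3 whose groups did not overlap on scaled counts (CPM), as was the case for 63.0% of all tested genes (33.6% higher and 29.4% lower in CCI). In bulk tissue, fewer cells of a type and less RNA per cell cannot be told apart.

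**Figure D1:**
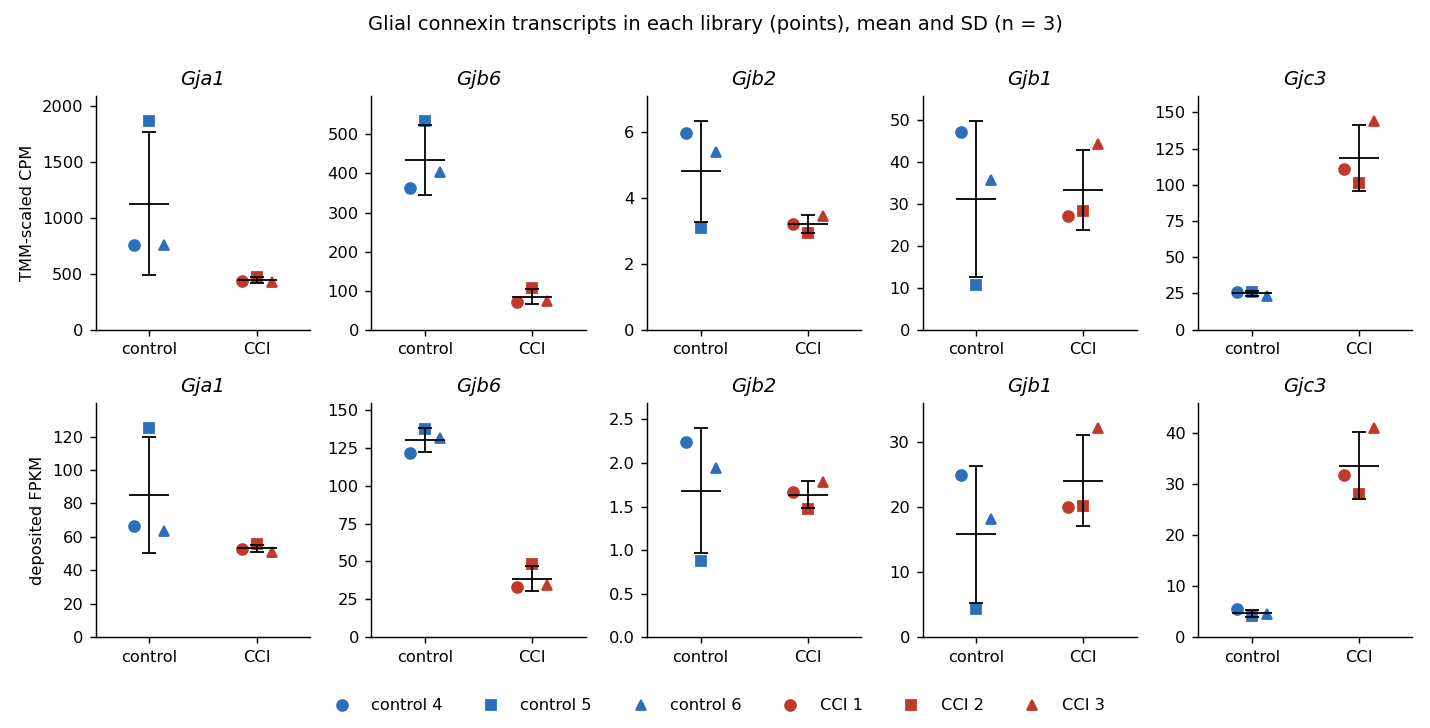
Level of each member in every library, as TMM-scaled CPM (upper panels) and as deposited FPKM (lower panels), with linear axes from 0. Points are libraries and black bars show the mean and SD of 3. Gjb6 lies between 71.3 and 107 CPM in CCI and between 362 and 535 in control, and Gjc3 between 101 and 144 against 23.0 to 26.2.

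Libraries held 7989139 to 10529886 counts in CCI and 12337448 to 15438268 in control. CPM are counts scaled to a common library total with TMM, which corrects library totals for differences in composition, with TMM factors between 1.21 and 1.25 for CCI libraries and between 0.69 and 0.90 for controls. Control replicate 5 stood apart from the other controls, with 20.7% of its counts in its 50 most abundant genes, against 14.2% and 14.5% in control replicates 4 and 6 and 12.6% to 13.6% in CCI. Fold changes without it are given beside Gja1, Gjb2 and Gjb1, and for Gjb6 and Gjc3 they were -2.21 and 2.25. On the deposited FPKM, which are scaled to the plain total, fold changes of all genes lay 0.51 higher (log2, median) than with TMM scaling.

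Gja1 (ENSMUSG00000050953, chromosome 10, 56253426 to 56278609, plus strand, GRCm39) encodes Cx43, the main astrocyte connexin, which also makes hemichannels at the cell surface. Its level was 433, 472 and 426 CPM in CCI replicates 1, 2 and 3 and 761, 1869 and 755 CPM in control replicates 4, 5 and 6. All CCI libraries lay below all control libraries, and control replicate 5 was far above the other controls. The log2 fold change was -1.35 ± 0.36 (SE, n = 3 per group), with an edgeR adjusted p of 0.0140. Without control replicate 5 the difference was smaller and less variable, -0.80 ± 0.13 (edgeR adjusted p = 0.000301). The call was lost without CCI replicate 1 (edgeR adjusted p = 0.0535), without CCI replicate 3 (edgeR adjusted p = 0.0559) and on log2(FPKM + 1), where the log2 difference was -0.60 (limma adjusted p = 0.0794).

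Gjb6 (ENSMUSG00000040055, chromosome 14, 57360760 to 57371068, minus strand) encodes Cx30, which appears in astrocytes of mature grey matter and shapes their coupling and process reach. It stood at 71.3, 107 and 74.7 CPM in CCI replicates 1, 2 and 3 and at 362, 535 and 405 CPM in control replicates 4, 5 and 6. Every control library lay far above the highest CCI library. Gjb6 fell 5.14-fold, with a log2 fold change of -2.36 ± 0.24 (SE, n = 3 per group) and an edgeR adjusted p of 0.000239. Only 0.680% of tested genes had a lower fold change. It passed in each of the 15 alternative settings. Its change was -1.32 when smooth trends in gene length and mean expression were removed from each library and -1.23 when GC content was removed as well, and it passed in both fits (edgeR adjusted p = 0.00163 and 0.00158).

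Gjb2 (ENSMUSG00000046352, chromosome 14, 57336057 to 57342159, minus strand) encodes Cx26, a connexin of astrocytes and of the leptomeninges. It was the least abundant member, with 109 counts summed over CCI and 165 summed over control. Its level was 3.21, 2.92 and 3.47 CPM in CCI and 5.98, 3.07 and 5.39 CPM in control replicates 4, 5 and 6. Control replicate 5 lay within the CCI range and the other controls above it. The log2 fold change of -0.60 ± 0.32 did not pass (edgeR adjusted p = 0.140, n = 3 per group). It passed without control replicate 5 (-0.85 ± 0.27, edgeR adjusted p = 0.0184), and on log2(FPKM + 1) its sign turned, to 0.01 (limma adjusted p = 0.967).

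Gjb1 (ENSMUSG00000047797, chromosome X, 100419984 to 100429235, plus strand) encodes Cx32, found in the myelin sheath of oligodendrocytes and Schwann cells. Its level was 27.3, 28.4 and 44.5 CPM in CCI replicates 1, 2 and 3 and 47.2, 10.8 and 35.8 CPM in control replicates 4, 5 and 6. The groups overlapped, and the control libraries spanned the whole CCI range because replicate 5 was the lowest of all 6 and replicate 4 the highest. The log2 fold change was 0.09 ± 0.45 (edgeR adjusted p = 0.881, n = 3 per group). Its sign turned without control replicate 5 (-0.33 ± 0.21, edgeR adjusted p = 0.199) and without CCI replicate 3 (-0.18 ± 0.53, edgeR adjusted p = 0.807), so no direction can be given for Gjb1.

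Gjc3 (ENSMUSG00000056966, chromosome 5, 137951723 to 137961360, minus strand) encodes Cx29, the connexin of the inner myelin membrane. It stood at 111, 101 and 144 CPM in CCI replicates 1, 2 and 3 and at 26.2, 25.8 and 23.0 CPM in control replicates 4, 5 and 6. The control libraries were nearly level, control replicate 5 included. Gjc3 rose 4.75-fold, with a log2 fold change of 2.25 ± 0.18 (SE, n = 3 per group) and an edgeR adjusted p of 0.000175. The call held under all 15 alternative settings, and the log2 fold change ranged from 2.08 without CCI replicate 3 to 2.86 after removal of length, GC and expression trends.

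**Figure D2:**
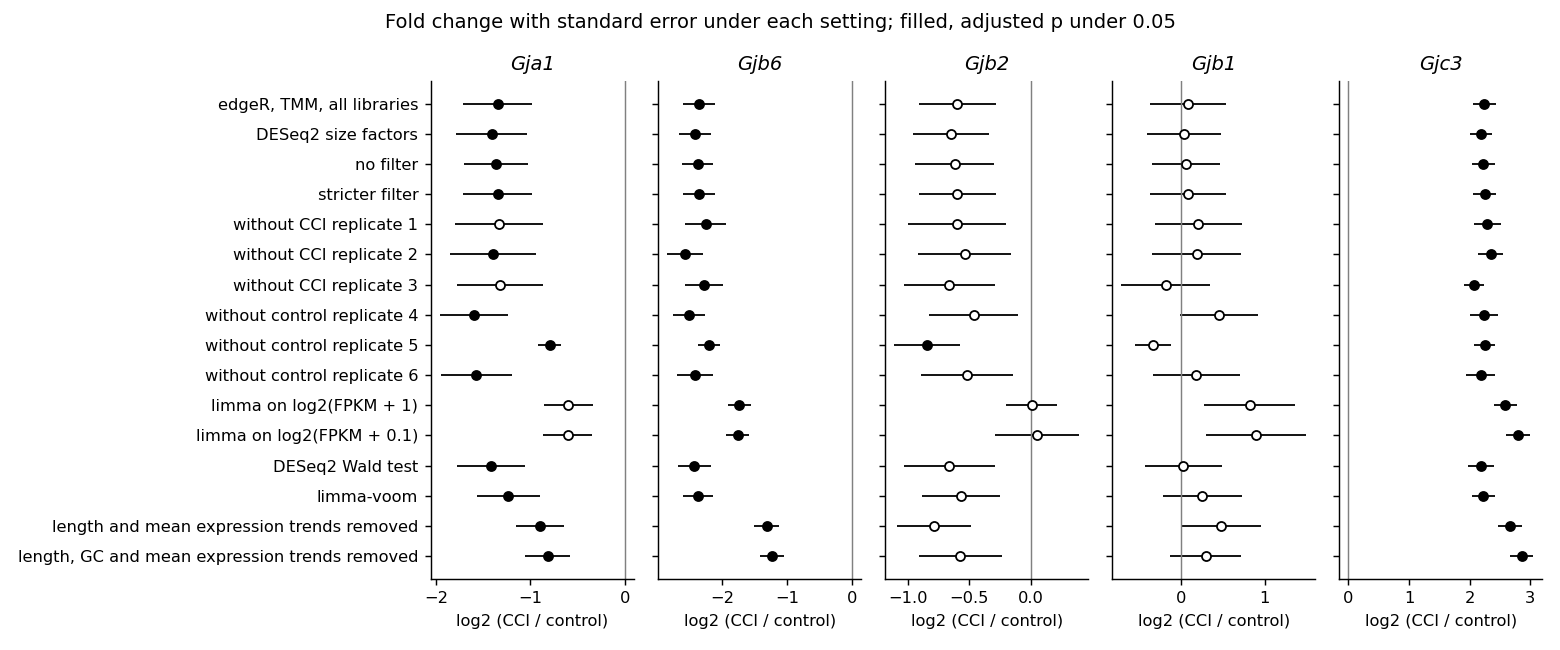
Log2 fold change of each member (CCI over control, horizontal axis, with its standard error) under the fit with all libraries and under 15 alternative settings. Filled points have an adjusted p under 0.05. Gjb6 and Gjc3 stay filled and on one side of 0 throughout, Gja1 is open in 4 settings, and Gjb1 crosses 0.

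The bases before the transcription start are given for the 3 members that passed, since they moved in different directions. Each run is the 250 bases upstream of the RefSeq start on the gene's own strand, from the GRCm38.p6 assembly, which differs from the GRCm39 build of the count table. Matches to any of 4 motifs, searched on both strands, are in capitals: AP-1 (TGANTCA), the GC box (GGGCGG), a SOX factor core (ACAANG) and the TATA box (TATAAA).
Gja1, chr10:56377050-56377299, plus strand: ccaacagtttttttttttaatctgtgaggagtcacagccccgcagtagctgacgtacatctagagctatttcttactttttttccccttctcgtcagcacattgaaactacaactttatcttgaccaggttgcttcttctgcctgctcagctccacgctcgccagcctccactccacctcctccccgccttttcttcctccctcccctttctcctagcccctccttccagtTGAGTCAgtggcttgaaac
Gjb6, chr14:57133612-57133861, minus strand: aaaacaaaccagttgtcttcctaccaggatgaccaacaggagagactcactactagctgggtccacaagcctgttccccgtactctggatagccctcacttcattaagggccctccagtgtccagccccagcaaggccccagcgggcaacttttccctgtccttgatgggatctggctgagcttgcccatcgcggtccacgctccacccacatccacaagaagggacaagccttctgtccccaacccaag
Gjc3, chr5:137963099-137963348, minus strand: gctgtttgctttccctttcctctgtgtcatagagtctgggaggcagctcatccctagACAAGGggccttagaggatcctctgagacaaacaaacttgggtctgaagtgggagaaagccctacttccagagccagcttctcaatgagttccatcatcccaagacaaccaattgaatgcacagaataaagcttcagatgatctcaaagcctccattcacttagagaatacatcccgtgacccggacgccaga
The Gja1 window held 1 AP-1 match, 19 to 13 bases before the start, and such a match occurs in 6.75% of 32851 promoter windows of the same length. The Gjc3 window held 1 SOX core match, 193 to 188 bases before the start, as do 36.3% of the windows. The Gjb6 window held none of the 4. GC boxes, present in 32.7% of windows, and TATA boxes, present in 12.4%, were not found in these 3 windows. A match is a description of the letters and does not show binding. Among the members without a call, the Gjb2 window held 2 GC box matches. Of 4 annotated Gjb1 starts, the last had 3 GC box, 2 SOX core and 1 TATA box matches, the first had 1 SOX core match, and the other two had none of the 4.

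The order of the members by level per gene length differed between the groups. In control, deposited FPKM (fragments scaled to gene length and library total) ran from Gjb6 at 130 ± 7.85 (SD, n = 3) and Gja1 at 85.1 ± 34.5 to Gjb1 at 15.8 ± 10.5, Gjc3 at 4.69 ± 0.688 and Gjb2 at 1.68 ± 0.715. The ranges of Gjb6 and Gja1 overlapped, as did those of Gjb1 and Gjc3. In CCI the order was Gja1 at 53.2 ± 2.26 FPKM, Gjb6 at 38.8 ± 8.47, Gjc3 at 33.5 ± 6.58, Gjb1 at 24.1 ± 6.97 and Gjb2 at 1.64 ± 0.156. Here Gja1 lay above Gjb6 in every library, while the ranges of Gjb6 and Gjc3, and of Gjc3 and Gjb1, overlapped. The table gives Gja1 a length of 10257 bp, whereas the GENCODE M21 transcript used above has 3182 bases, and for the other members the 2 lengths differ by at most 1.27 times. Per transcript length, a choice made after the data were seen, Gja1 was the most abundant member in control too, at 274 ± 111 against 165 ± 9.97 for Gjb6, and no comparison of 1 gene between groups changes.

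Within the connexins of each library, the share of Gjb6 was lower and that of Gjc3 higher in CCI, while the share of Gja1 overlapped between the groups (27.6% to 34.3% in CCI and 27.7% to 44.8% in control). Gjb6 took 52.1%, 49.2% and 57.1% of the summed FPKM of 20 connexin genes in control replicates 4, 5 and 6, against 21.7%, 28.8% and 18.6% in CCI replicates 1, 2 and 3. Gjc3 took 2.32%, 1.45% and 1.99% in control and 20.6%, 16.7% and 22.03% in CCI. Neither of these shares overlapped between the groups. The 5 members together held 94.7%, 97.4% and 95.5% of the sum in control and 90.6%, 91.3% and 86.5% in CCI. Shares sum to a whole, so 1 share falls where others rise, and they depend on the lengths used for Gja1.

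**Figure D3:**
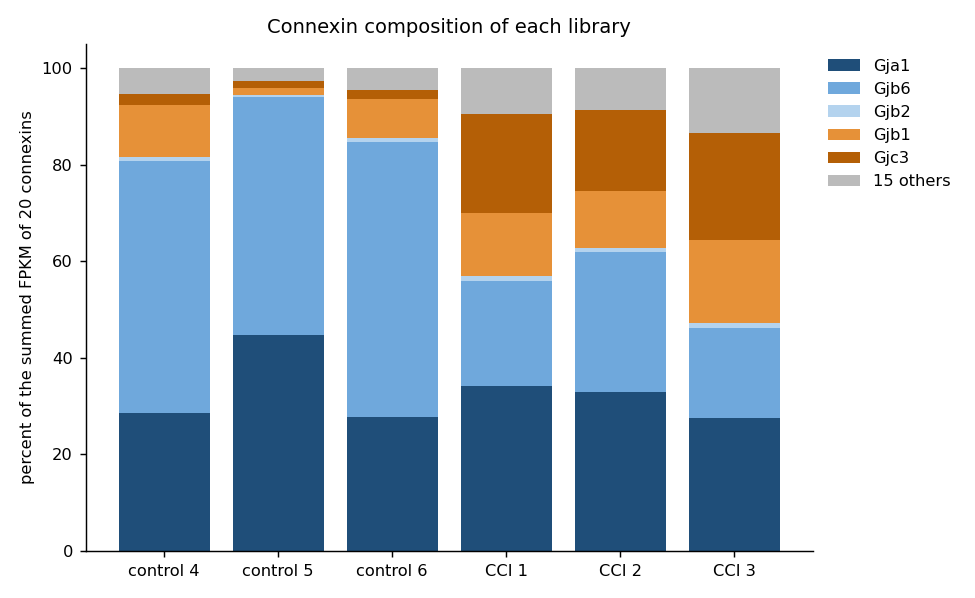
Share of each connexin in the summed deposited FPKM of 20 connexin genes (vertical axis, percent) in each library. Blue shades are the astrocyte members, orange shades the oligodendrocyte members, and grey the other 15 connexins. The Gjb6 segment spans 49.2% to 57.1% in control and 18.6% to 28.8% in CCI.

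Ratios within a library are free of the scaling factor, and 10 were compared by exact two-sided permutation tests over the 6 libraries. With 3 against 3 libraries the smallest possible p is 0.1, so no ratio could pass 0.05, and p-values of 0.1 became 0.143 after Benjamini-Hochberg adjustment over the 10 ratios. Per table length, the ratio of Gjb6 to Gja1 was 0.632, 0.872 and 0.672 in CCI replicates 1, 2 and 3 and 1.82, 1.10 and 2.06 in control replicates 4, 5 and 6. The groups did not overlap, and the ratio was 2.23-fold lower in CCI by the mean log2 values (exact permutation p = 0.1). Gjb6 to Gjb2, the neighbours on chromosome 14, gave 20.02, 33.0 and 19.4 in CCI against 54.4, 157 and 67.7 in control, again without overlap (exact permutation p = 0.1). The ratio of Gjb2 to Gja1 overlapped between the groups (exact permutation p = 0.6), with control replicate 5 at 0.00701 and the other 5 libraries between 0.0264 and 0.0347. Its log2 difference was 0.67, and -0.06 without control replicate 5.

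Among the oligodendrocyte members, the ratio of Gjb1 to Gjc3 was 0.629, 0.717 and 0.786 in CCI replicates 1, 2 and 3 and 4.59, 1.07 and 3.97 in control replicates 4, 5 and 6 (exact permutation p = 0.1). In control Gjb1 was the more abundant of the 2 per length, and in CCI it was Gjc3. Control replicate 5 lay much closer to the CCI libraries than to its own group. Without it the log2 difference was -2.59, against -1.93 with all libraries.

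Members were also set against markers of their cell type in the same library. Relative to the mean log2 CPM of 14 astrocyte markers, Gjb6 was -0.65, -0.23 and -0.66 in CCI and 1.05, 1.83 and 1.35 in control replicates 4, 5 and 6, a log2 difference of -1.93 without overlap (exact permutation p = 0.1). Gja1 lay 1.94, 1.91 and 1.85 above the astrocyte mean in CCI and 2.12, 3.64 and 2.25 above it in control. That difference of -0.77 (exact permutation p = 0.1) shrank to -0.29 without control replicate 5, although the groups still did not overlap. Gjb2 showed no separation from the astrocyte mean, with a difference of -0.08 (exact permutation p = 0.7). Against 10 leptomeningeal fibroblast markers Gjb2 was lower in CCI by a log2 difference of -1.19 without overlap (exact permutation p = 0.1). Its lowest control value, -0.94 in replicate 5, was close to the highest CCI value of -1.12, and the difference was -1.66 without that library.

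Gjc3 lay 0.86 higher in CCI relative to the mean of 14 oligodendrocyte markers, on the log2 scale, although that mean itself was higher in CCI. Its values were -1.77, -2.00 and -1.82 in CCI and -2.76, -2.68 and -2.73 in control, without overlap (exact permutation p = 0.1). The difference was 1.41 when the median of the markers replaced the mean. Gjb1 relative to the same markers was -3.78, -3.82 and -3.51 in CCI and -1.92, -3.93 and -2.10 in control replicates 4, 5 and 6. The difference of -1.06 (exact permutation p = 0.4) came with overlap through control replicate 5, and it was -1.70 without that library. With the median of the markers in place of the mean, the Gjb1 difference shrank to -0.51.

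**Figure D4:**
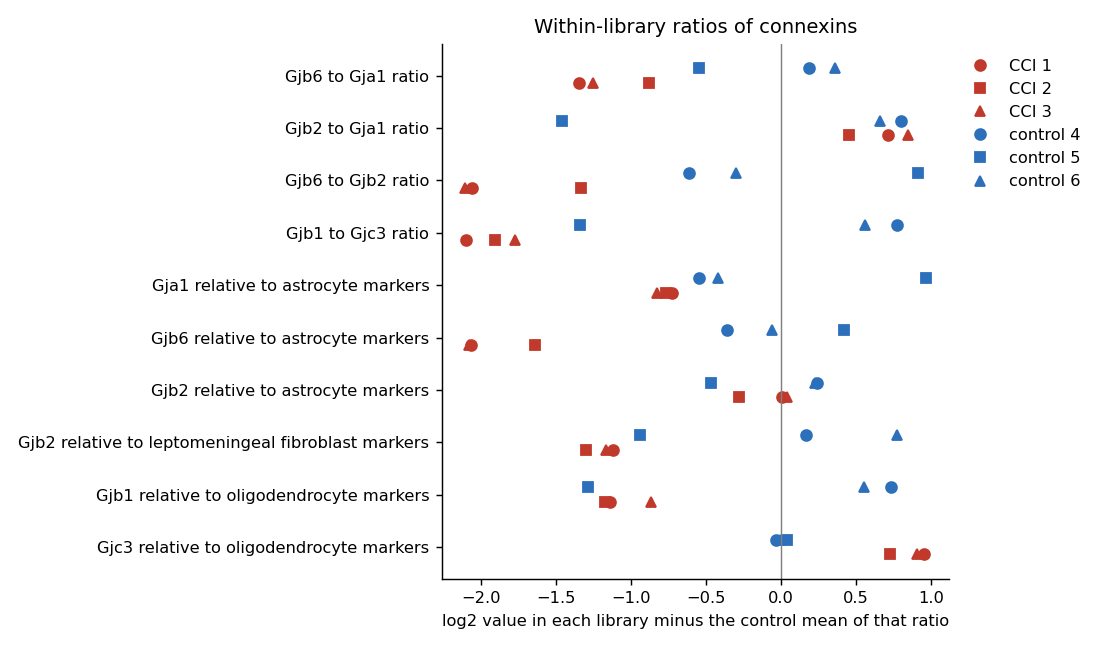
Within-library log2 ratios of the members to each other and to marker means (rows), each shown as its value in a library minus the control mean (horizontal axis). Red points are CCI and blue points control libraries. The groups separate in 7 of the rows, and control replicate 5 (blue square) lies away from the other controls in most.

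Of the other 15 connexin genes, 12 had at least 1 count and 6 had enough counts to be tested. Of these 6, 2 rose, 1 fell and 3 did not pass. The 3 called of 6 are close to the 52.3% called among all tested genes. The count of risers depends on single libraries: none rose without CCI replicate 3, control replicate 4 or control replicate 6, and 1 rose without CCI replicate 1 or control replicate 5.

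Gjc1, which encodes Cx45 of vascular smooth muscle and some neurons, fell by 1.02 ± 0.26 on the log2 scale (edgeR adjusted p = 0.0107, n = 3 per group), with 5.01, 6.94 and 4.31 CPM in CCI and 10.2, 12.9 and 9.95 CPM in control. On log2(FPKM + 1) it was at -0.26 and did not pass (limma adjusted p = 0.130). Gjd2, the main connexin of electrical synapses between neurons, was at -0.77 ± 0.30 (edgeR adjusted p = 0.0560, n = 3 per group). Gjd2 passed without control replicate 5 (-1.02, edgeR adjusted p = 0.00428), with DESeq2 size factors or its Wald test (adjusted p = 0.0410 and 0.0403) and with length and expression trends removed (edgeR adjusted p = 0.0265). The vascular connexins Gja4 and Gja5 were at -0.76 ± 0.34 and 0.19 ± 0.51 and did not pass (edgeR adjusted p = 0.0905 and 0.775). With length and expression trends removed Gja4 passed at -1.11 (edgeR adjusted p = 0.0319), and Gja5 was at -0.95 (edgeR adjusted p = 0.177), so no direction can be given for Gja5. The table places Gja5 across Gpr89 on the opposite strand, and with no strand setting given its value is uncertain. Gjb5, Gjd3, Gja3 and Gja10 had 37, 26, 8 and 1 counts over all libraries and were not tested.

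Pannexins form channels that release ATP and do not make gap junctions in these cells. Panx1 fell by 0.86 ± 0.31 on the log2 scale (edgeR adjusted p = 0.0421, n = 3 per group), with 7.21, 7.94 and 11.5 CPM in CCI and 20.3, 10.05 and 18.0 in control replicates 4, 5 and 6. The groups overlapped at control replicate 5, and the call was lost on leaving out either of CCI replicates 1 and 2 or of control replicates 4 and 6 (edgeR adjusted p from 0.106 to 0.138) and on log2(FPKM + 1) (limma adjusted p = 0.585). The neuronal Panx2 was at 0.59 ± 0.22 and did not pass (edgeR adjusted p = 0.0522, n = 3 per group), but passed without CCI replicate 3 or control replicate 4 (edgeR adjusted p = 0.0401 and 0.0464) and at 0.95 on log2(FPKM + 1) (limma adjusted p = 0.00647). Panx3 had 20 counts and was not tested.

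Among 10 genes whose proteins bind or regulate connexins, 3 rose, 1 fell and 6 did not pass, with a median log2 fold change of 0.23 against 0.06 over all tested genes. The 4 called of 10 stand beside 52.3% called among all tested genes. On log2(FPKM + 1), 8 were higher. Among them Tjp1, whose product ZO-1 binds the tail of Cx43, rose by 0.52 ± 0.15 (edgeR adjusted p = 0.0185, n = 3 per group). Tjp1 lost its call without CCI replicate 2 or control replicate 4 or 6 (edgeR adjusted p from 0.0710 to 0.0857). The catenin gene Ctnnb1 fell from 235 ± 31.2 to 87.6 ± 9.66 CPM (SD, n = 3). The kinase gene Prkca rose by 1.30 ± 0.43 (edgeR adjusted p = 0.0337), and without CCI replicate 3 it was at 0.51 (edgeR adjusted p = 0.0864). It did not pass without control replicate 4 or 6 either (edgeR adjusted p = 0.0547 and 0.0860).

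Genes of glial potassium and volume regulation, the task with which astrocyte coupling is linked, went both ways: 4 of 9 rose, 3 fell and 2 did not pass (median -0.01). The 7 called of 9 stand beside 52.3% called among all tested genes. The inward rectifier Kcnj16 fell by 2.24 ± 0.17 on the log2 scale, from 74.1 ± 11.2 to 15.7 ± 0.945 CPM (SD, n = 3). Its partner Kcnj10 was at -0.87 ± 0.17 (edgeR adjusted p = 0.00298) and the sodium pump subunit Atp1b2 at -1.47 ± 0.28 (edgeR adjusted p = 0.00267). Both lost their calls on log2(FPKM + 1) and after removal of the length and expression trends. The chloride cotransporter Slc12a2 rose by 1.26 ± 0.24 (edgeR adjusted p = 0.00299).

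Cell type markers were read in the same libraries, and their part in the connexin differences was not tested. Called were 7 of 14 astrocyte, 11 of 14 oligodendrocyte and 5 of 8 oligodendrocyte precursor markers. The share over all tested genes was 52.3% (27.0% higher and 25.3% lower in CCI), so the astrocyte count is close to it. Of 14 astrocyte markers 2 rose, 5 fell and 7 did not pass (median log2 fold change -0.35), and their summed level was 3910 to 4593 CPM in CCI and 9581 to 10830 in control. Aldoc made up much of that sum, and without it the levels were 2849 to 3640 CPM in CCI and 4592 to 5098 in control. Sums without the most abundant gene, given for some lists, were added after the data were seen. The glycolytic enzyme gene Aldoc (-2.26 ± 0.28), the neurotensin receptor gene Ntsr2 (-1.39 ± 0.20), Ndrg2 (-1.59 ± 0.24) and the thyroid hormone transporter gene Slco1c1 (-1.15 ± 0.23) fell. The 2 higher markers were Gfap (1.20 ± 0.31, edgeR adjusted p = 0.0115) and Atp13a4 (0.81 ± 0.22, edgeR adjusted p = 0.0134). Gfap was at 254 to 298 CPM in CCI and 65.5 to 169 in control. Neither is among the 4 with the smallest p-values, and both were added with the results in view. On log2(FPKM + 1), 5 astrocyte markers were higher and 3 lower, and the median was 0.27. With length and expression trends removed, 2 were higher and 2 lower, and neither Ntsr2 nor Ndrg2 passed (edgeR adjusted p = 0.181 and 0.202). Slco1c1 did not pass on log2(FPKM + 1) (limma adjusted p = 0.0941). Of 14 oligodendrocyte markers 11 rose, none fell and 3 did not pass (median 1.35), with a summed level of 19098 to 25167 CPM in CCI against 7481 to 14334 in control. The 4 with the smallest p-values were the myelin genes Mobp (2.69 ± 0.25), Cldn11 (1.98 ± 0.21), Mal (1.42 ± 0.22) and Cnp (1.23 ± 0.20). Of 8 oligodendrocyte precursor markers 5 rose, none fell and 3 did not pass. Among the higher ones were Bcas1 (2.36 ± 0.22), Vcan (2.08 ± 0.23), Enpp6 (1.67 ± 0.21) and Cspg4 (2.14 ± 0.32). Lhfpl3 (0.50 ± 0.20), Pdgfra (0.03 ± 0.17) and C1ql1 (0.06 ± 0.53), named after their values were seen, did not pass. Summed levels of the 8 were 557 to 626 CPM in CCI and 200.3 to 211 in control (228 to 251 and 117 to 150 without Bcas1). Cspg4 did not pass with length, GC and expression trends removed (0.59, edgeR adjusted p = 0.0747).

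Markers of other cell types were counted beside the 52.3% of all tested genes called (27.0% higher and 25.3% lower in CCI). Called were 5 of 10 fibroblast, 6 of 10 endothelial and mural and 7 of 11 neuron markers, near that share. The 1 of 7 ependymal, 2 of 7 choroid plexus and 4 of 11 microglia markers called lay below it. Of 10 tested leptomeningeal fibroblast markers 4 rose and 1 fell, with the transporter gene Slc6a13 (1.62 ± 0.27), Ogn (2.29 ± 0.38), Col1a2 (1.19 ± 0.23) and Mgp (1.09 ± 0.35) higher, a summed level of 126 to 140.1 CPM in CCI and 62.9 to 124 in control, and Igf2 without a count. Col1a2 was at 0.11 with length and expression trends removed (edgeR adjusted p = 0.711) and at -0.18 with GC removed as well (edgeR adjusted p = 0.521). No other marker was at 0 in all libraries. The call for Mgp was lost on leaving out any of CCI replicates 2 and 3 and control replicates 4 and 6 (edgeR adjusted p from 0.0540 to 0.106), and without any 1 CCI library no fibroblast marker was lower. Of 10 endothelial and mural markers 2 rose and 4 fell (summed 363 to 428 CPM against 760.3 to 913), the endothelial gene Itm2a by 2.67 ± 0.28 and the pericyte gene Rgs5 by 1.04 ± 0.18 on the log2 scale, while the endothelial receptor gene Flt1 (0.58 ± 0.15) and, named after its value was seen, the cadherin gene Cdh5 (1.19 ± 0.40) rose. Without Itm2a the sums were 312 to 364 CPM in CCI and 408 to 525 in control. Rgs5 did not pass on log2(FPKM + 1) (-0.42, limma adjusted p = 0.122) or with length and expression trends removed (-0.29, edgeR adjusted p = 0.200). Flt1 was at 0.11 with those trends removed (edgeR adjusted p = 0.604) and lost its call without CCI replicate 2 (edgeR adjusted p = 0.0528). Of 7 ependymal markers 1 rose, the ciliary transcription factor Foxj1 (1.44 ± 0.36), and 6 rose without control replicate 5. Their summed level was 154 to 257 CPM in CCI and 89.4 to 296 in control. Of 7 choroid plexus markers 2 rose, Prlr (1.66 ± 0.28) and Otx2 (1.57 ± 0.32). The summed level of the 7 was 2097 to 2963 CPM in CCI and spanned 299 to 4164 CPM among the control libraries alone. Most of that sum was Ttr. Without Ttr the sums were 181.7 to 216.8 CPM in CCI and 39.7 to 181.3 in control. Of 11 microglia markers 3 rose and 1 fell, the complement genes C1qb (0.84 ± 0.27) and C1qa (0.82 ± 0.30) and the integrin gene Itgam (0.75 ± 0.25) being the higher ones, with summed levels of 219 to 313 CPM in CCI and 305 to 354 in control. C1qa was at 0.54 without control replicate 5. None rose without CCI replicate 2 or 3, and 1 rose without CCI replicate 1 or control replicate 4 or 6. Of 11 neuron markers 4 rose and 3 fell, with the synaptic gene Snap25 at -1.92 ± 0.29, the thalamic glutamate transporter gene Slc17a6 at -1.41 ± 0.25 (-0.57 with length and expression trends removed, edgeR adjusted p = 0.0802) and the GABA-synthesising enzyme gene Gad1 at 1.77 ± 0.39. Their summed level was 3878 to 4326 CPM in CCI and 7927 to 10322 in control, of which Snap25 was a large part. Without Snap25 it was 2498 to 2774 CPM in CCI and 3178 to 3213 in control. Only 2 neuron markers rose when CCI replicate 1, CCI replicate 3 or control replicate 6 was left out.

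**Figure D5:**
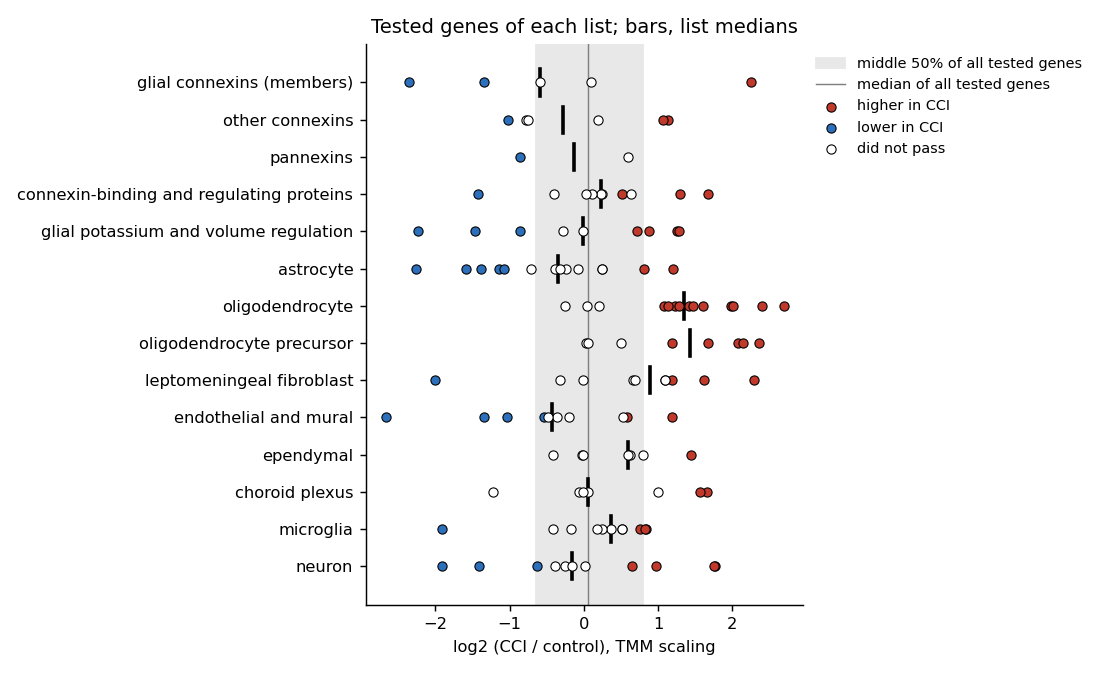
Log2 fold change (horizontal axis, CCI over control) of every tested gene of each list (rows). Red and blue points passed an adjusted p of 0.05, open points did not, black bars are list medians, and the grey band holds the middle 50% of all tested genes. Gjb6 and Gja1 lie left of the band and Gjc3 right of it, and 11 of 14 oligodendrocyte markers lie on the right.

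The nearest named genes on either side of the members did not share one pattern. Genes with Gm-number, Rik or accession-type symbols were passed over, so a gene given here need not be the adjacent one. Cryl1, next to Gjb6 on the far side from Gjb2, was at -0.29 ± 0.18 (edgeR adjusted p = 0.198, n = 3 per group) and at 0.27 on log2(FPKM + 1) (limma adjusted p = 0.151), and Gja3, on the other side of Gjb2, had 8 counts. Tbc1d32, a ciliary gene before Gja1, rose by 1.53 ± 0.18 (edgeR adjusted p = 0.000377), and Hsf2 after it was at -0.95 ± 0.42 (edgeR adjusted p = 0.0876). Hsf2 starts at 57362481, far past the end of Gja1 at 56278609. Hsf2 was at -0.20 without control replicate 5 (edgeR adjusted p = 0.182) and passed at -1.28 without control replicate 4 (edgeR adjusted p = 0.0240). Around Gjb1, the synaptic adhesion gene Nlgn3 fell by 0.91 ± 0.22 and Zmym3 rose by 1.02 ± 0.16 on the log2 scale, and Nlgn3 did not pass on log2(FPKM + 1) (limma adjusted p = 0.449). Cyp3a13, beside Gjc3, rose by 2.26 ± 0.68 from 0.390 ± 0.391 to 1.70 ± 0.651 CPM (SD, n = 3), and Azgp1 on the other side had 12 counts in CCI and 2 in control. Its neighbour Cyp3a13 lost its call when any of CCI replicates 1 and 3 and control replicates 4 and 6 was left out (edgeR adjusted p from 0.0527 to 0.0886).

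The genes most like each member were sought among 11690 candidates, by the root mean square difference of mean-centred log2 CPM over the 6 libraries. For Gjb6 these were the RNA helicase gene Ddx25 (0.10), Aldoc (0.11) and Nudt10 (0.12), of which Aldoc is also an astrocyte marker. For Gja1 they were the proteasome subunit gene Psma3 (0.05), the chromatin protein gene Hmgb1 (0.06) and Lxn (0.06), which were also highest in control replicate 5, at 1692, 1745 and 122 CPM. For Gjc3 they were Zfp280c (0.10), the transcription factor gene Zeb2 (0.10) and Padi2 (0.11), all lower in each control library than in any CCI library. Zfp418, Nudt9 and Ssrp1 were nearest to Gjb2 (0.04 to 0.07) and Tmem150a, Cacng8 and Ubald1 to Gjb1 (0.17 each). All 6 of these genes had their lowest control value in replicate 5, and likeness over 6 libraries in 2 groups mostly reflects the group difference and that library.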

How the data were processed

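RNA was measured in 6 bulk libraries of mouse brain tissue. Per the labels' protocols, libraries were made from poly-A RNA with random-primed cDNA. Per the submitters' processing notes, the build was GRCm39 and the tools named include HTSeq 0.9.1, a read counter, and the aligner HISAT2 2.1.0. No strand setting is given in the sources used here. Per the file headers the deposited table holds a read count and an FPKM value per gene and library. The authors' FPKM equalled the count divided by Length and column total. Counts were used as deposited.

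Genes were tested with edgeR 4.0.16 (R 4.3.3) on the whole table, using TMM factors, genes kept by filterByExpr and a quasi-likelihood F-test, adjusted over 14259 genes with a threshold of 0.05. The SE is the log2 fold change over the root of F. Alternatives used DESeq2 1.42.0 size factors and Wald test, no filter or at least 1 CPM in every library of a group, each library left out, limma 3.58.1 on log2(FPKM + 1) and log2(FPKM + 0.1), limma-voom, and natural-spline trends in length, mean expression and GC content (known for 99.9% of tested genes) as offsets. The code was tested on simulated data. Ratios used scipy 1.17.1.

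Members, lists and rules were chosen with earlier results of these data known. The naming rule took the members, other connexins and pannexins with counts, up to 4 genes of each other list by smallest p, chromosomal neighbours and the 3 genes nearest in pattern. Sequences came from RefSeq (GRCm38.p6, all 5 members matched) and GENCODE M21. Some genes that the naming rule covers are not reported here.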

Additional observations from a re-analysis of the deposited data

How the results depend on the processing

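Gjb6 and Gjc3 kept their direction and call in all 15 alternative settings. Leaving out 1 library at a time gave log2 fold changes of -2.57 to -2.21 for Gjb6, 2.08 to 2.35 for Gjc3, -1.60 to -0.80 for Gja1, -0.85 to -0.47 for Gjb2 and -0.33 to 0.45 for Gjb1, with 2 to 4 members called. Gja1 kept its direction in all 15 and passed in 11. Its call was lost on log2(FPKM + 1) (-0.60), on log2(FPKM + 0.1) (-0.61) and without CCI replicate 1 or 3. These scales lie 0.51 and 0.60 above TMM scaling for the median gene, and less that shift Gja1 was at -1.11 and -1.20. Gjb2 turned sign on both, to 0.011 and 0.053 (-0.50 and -0.54 less the shift). With length and expression trends removed Gja1 was at -0.90, and with GC removed as well at -0.82, and it passed in both fits. Less the median shift of all genes in those fits, Gja1 was at -0.74 and -0.68. Gjb1 turned sign without CCI replicate 3 (-0.18) and without control replicate 5 (-0.33). With the median of the markers in place of their mean, the difference of Gjc3 from its markers was 1.41 and that of Gjb1 was -0.51. The cause of these changes was not tested. On log2(FPKM + 1), 8159 genes were called and 83.2% of them were higher, against 7461 and 51.6%. Leaving out 1 library gave 5511 to 8975 calls, and removing the trends 5328 and 5389. The low counts of Gjb2, 26 to 72 per library, limit what can be seen for it. No paired analysis was possible because the groups share no replicate numbers.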
